A study of Mus musculus with 24 samples.

Results

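Colony-stimulating factor receptors, with one of their ligands and the adaptors of a neighbouring receptor, were followed through macrophages grown from mouse bone marrow. The 8 genes were Csf1, Csf1r, Csf2ra, Csf2rb, Csf2rb2, Csf3r, Trem2 and Tyrobp. They were chosen by symbol from the 23337 genes listed in the total RNA counts and from the 12660 genes with at least 1 count among the ribosome footprint counts. All 8 were found in both kinds of library.

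Csf1 encodes M-CSF, the growth factor that keeps macrophages alive and drives their differentiation, and Csf1r encodes its receptor tyrosine kinase. GM-CSF acts instead through a cytokine receptor made of an alpha chain, Csf2ra, that binds the ligand, and a common beta chain, Csf2rb, that carries the signal through JAK kinases. Mice also have Csf2rb2, a near-identical beta chain that serves the IL-3 receptor. Csf3r is the G-CSF receptor, best known from neutrophils and their precursors. Trem2 is a lipid-sensing surface receptor of macrophages and microglia. It has no signalling tail of its own and signals through Tyrobp (DAP12), an adaptor with an ITAM motif that recruits the kinase Syk and that is also coupled to signalling by Csf1r.

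The cells came from Apobec1 -/- mice (KO) and from wild-type mice (WT) of strain C57BL/6J aged 6 to 12 weeks, and the series asks how functional APOBEC1, an enzyme known for C-to-U editing of RNA, affects translation. All cultures were kept for 7 days in medium with 20 ng/mL M-CSF, and every 3 days part of the medium was renewed with medium holding 40 ng/mL. M-CSF was thus present in both genotypes and in every batch, so a level without added ligand was not measured. Each of the 6 KO and 6 WT cultures gave 1 library of ribosome footprints and 1 of total RNA. Batch 3 held KO5, KO6, WT5 and WT6. Batch 2 held KO2, KO3, KO4 and WT4, and batch 1 held KO1, WT1, WT2 and WT3. Whether each culture had an animal of its own is not stated in the labels, and the p-values therefore speak only of the spread among these samples, which may be technical.

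Footprint libraries held 29561 to 3714912 counts in genes and total RNA libraries 5077478 to 12059361. The footprint libraries of batch 3 were the thinnest, with 223504 counts in KO5, 90773 in KO6, 218074 in WT5 and 29561 in WT6. As a check of the labels, footprints of Apobec1 were lower in KO (log2 fold change -3.51, edgeR adjusted p = 5.13e-08) while its RNA was higher (1.34, adjusted p = 1.39e-04). Emr1 (F4/80) and Itgam (CD11b), the 2 surface markers the labels say were stained for, were present in all 12 total RNA libraries, at 7586 to 60091 counts and 2957 to 13337 counts. Emr1 averaged 1251 CPM (counts scaled to a library of 1000000, with TMM factors) in batch 3, against 4734 CPM in batch 2 and 5569 CPM in batch 1. Batch 3 also differed in sex-linked RNA. Xist had 26.1 to 51.8 CPM there and at most 0.896 CPM in the other batches, and the Y-linked Ddx3y had at most 0.152 CPM there and at least 68.5 CPM elsewhere, so the sex of the animals and batch 3 cannot be told apart.

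Stretches of sequence before the annotated starts were read for the members with an entry in the RefSeq promoter table of build GRCm38.p6. They are shown because PU.1, the transcription factor that macrophage receptor genes are known for, binds purine-rich DNA with a GAGGAA core. The 250 bases before the start were searched for GAGGAA on both strands. The table had windows for 5 of the 8 genes and none for Csf1r, Csf2rb and Tyrobp. In the lines that follow, each 30 bases long and read along the gene's own strand, capitals mark GAGGAA or, for a match on the other strand, TTCCTC.
Csf3r, chr4:126024561-126024590, plus strand: cctccttcctgaGAGGAAggggctgtctat
Csf2ra, chr19:61228419-61228448, minus strand: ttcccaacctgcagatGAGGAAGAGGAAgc
Csf2rb2, chr15:78305871-78305900, minus strand: ctctgtgtctgcTTCCTCcagagaagtcag
Trem2, chr17:48346349-48346378, plus strand: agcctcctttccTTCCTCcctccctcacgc

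Csf2ra held 2 adjacent copies, which do not overlap and whose first bases lie 14 and 8 bases before the start. The single copies of Csf3r, Csf2rb2 and Trem2 began 86, 167 and 40 bases before it. The window of Csf1 had none. The starts are those of the table, and the stretches of Csf3r and Csf2ra lie inside the span annotated for the whole gene. Among all 32851 promoter windows of the table, 23.3% held the letters on either strand. The C/EBP-type pattern TTNNGNAA, also searched on both strands, matched in Csf2ra alone of the 5 windows and in 36.8% of all windows; its match began 31 bases before the start and does not overlap the GAGGAA copies. These are matches of letters and say nothing of binding in these cells.

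Csf1r RNA separated the 3 batches completely. It had 953 and 1291 CPM in KO5 and KO6 and 986 and 1260 CPM in WT5 and WT6 of batch 3. In batch 2 it had 4249, 3689 and 4126 CPM in KO2, KO3 and KO4 and 4059 CPM in WT4. In batch 1 it had 3170 CPM in KO1 and 2779, 2707 and 2852 CPM in WT1, WT2 and WT3. All cultures of batch 3 lay far below those elsewhere, and within each batch the KO and WT cultures lay close together. Relative to batch 2, Csf1r RNA in batch 3 was 3.59-fold lower (log2 -1.85, SE 0.13, edgeR adjusted p = 2.09e-07), and relative to batch 1 it was 2.59-fold lower (log2 -1.38, SE 0.12, adjusted p = 2.26e-06). Batch 2 was higher than batch 1 by 0.47 on the log2 scale (SE 0.13, adjusted p = 0.0196), a call lost without WT2 (adjusted p = 0.0529) or without WT4 (adjusted p = 0.0909).

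Footprints of Csf1r were low in the same batch. They reached 1771 and 2178 CPM in KO5 and KO6 and 2479 and 1628 CPM in WT5 and WT6, from 64 counts in WT6 to 560 in WT5. The other 8 cultures had 4638 to 6550 CPM, so batch 3 did not overlap with them. The footprints in batch 3 fell by 1.33 on the log2 scale relative to batch 2 (SE 0.15, adjusted p = 4.66e-08) and by 1.21 relative to batch 1 (SE 0.15, adjusted p = 2.35e-07). Between batch 2 and batch 1 the footprint difference was 0.13 (SE 0.15, adjusted p = 0.608).

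**Figure D1:**
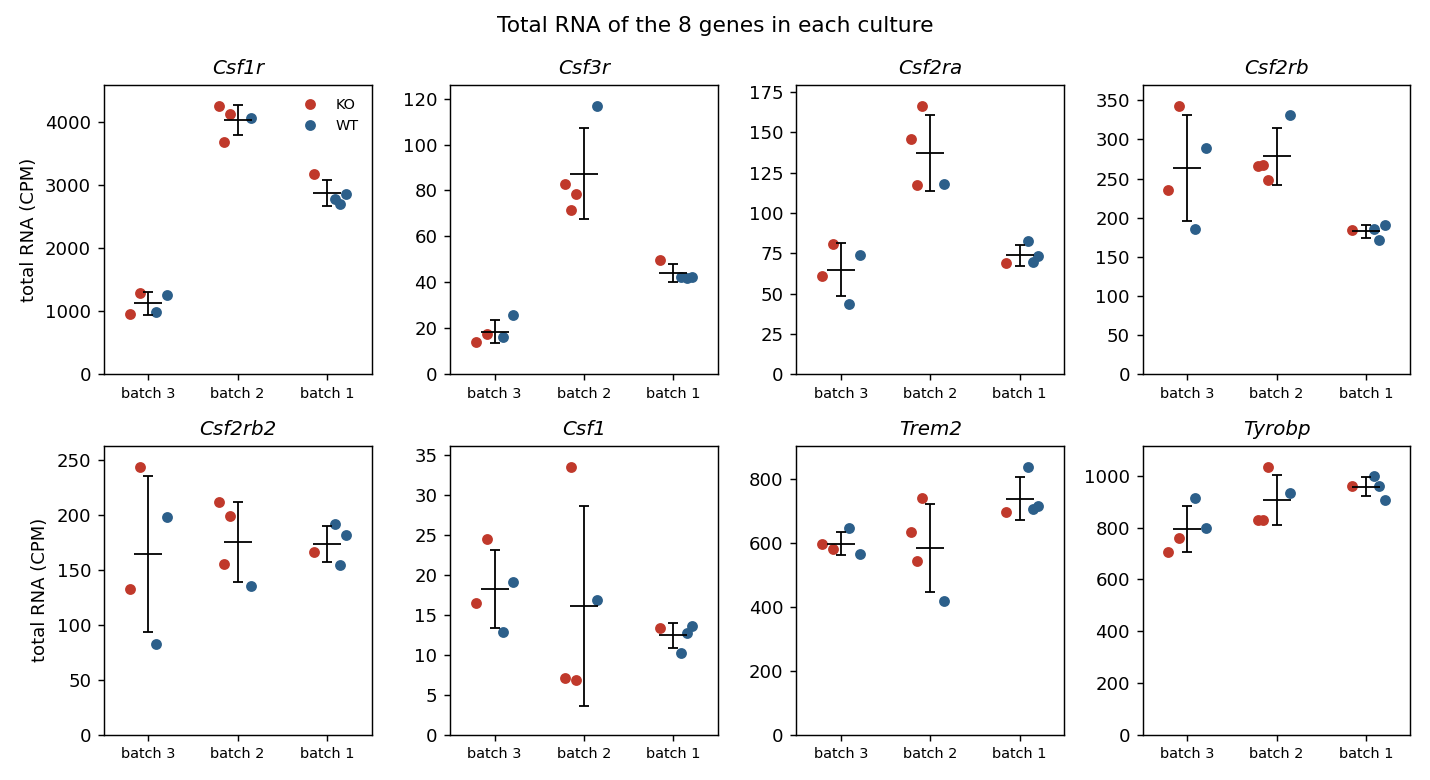
Total RNA of the 8 genes in CPM, with 1 point per culture (KO left of WT within a batch) and the mean and SD of each batch of 4 cultures in black. Csf1r and Csf3r are lowest in batch 3 and highest in batch 2 without overlap, while Trem2 and Tyrobp stay within 419 to 839 CPM and 705 to 1034 CPM.

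Csf3r RNA followed the same order. It had 14.1 and 17.6 CPM in KO5 and KO6 and 16.3 and 25.7 CPM in WT5 and WT6 of batch 3. Batch 2 had 82.7, 71.6 and 78.6 CPM in its KO cultures and 117 CPM in WT4, and batch 1 had 49.8 CPM in KO1 and 42.2, 42.0 and 42.2 CPM in its WT cultures. The batches did not overlap, and all 3 contrasts were called. Csf3r RNA in batch 3 was 4.98-fold lower than in batch 2 (log2 -2.32, SE 0.17, adjusted p = 5.38e-07) and 2.32-fold lower than in batch 1 (log2 -1.22, SE 0.17, adjusted p = 9.65e-05), and in batch 2 it was 2.15-fold higher than in batch 1 (adjusted p = 9.33e-04).

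Since Csf3r is a gene of neutrophils, 15 neutrophil markers (among them S100a8, S100a9, Ltf and Elane) were summed beside it. Their total was 453 to 589 CPM in batch 3, 83.3 to 497 CPM in batch 2 and 22.4 to 34.7 CPM in batch 1. The marker sum was therefore highest in the batch in which Csf3r was lowest. Within batch 2 the order was the other way, since WT4 had the most Csf3r RNA and a marker sum of 497 CPM, against 83.3, 129 and 139 CPM in KO2, KO3 and KO4. A few genes weigh heavily in the sum, with S100a8 and S100a9 at 129 and 200 CPM on average in batch 3 and Mmp8 at up to 225 CPM in batch 2. Single markers were divided. Of the 15, 5 had their highest mean in batch 2, and 3 had their lowest mean in batch 3, as Csf3r did. Mmp9 was among both, with 2.03 CPM in batch 3, 9.71 CPM in batch 2 and 8.24 CPM in batch 1. In whole cultures such as these, fewer cells of a type and less RNA per cell cannot be told apart.

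Csf3r footprints were few in batch 3, with 1 and 0 counts in KO5 and KO6 and 4 and 1 counts in WT5 and WT6. A count of 3 there equals 13.3 CPM in KO5, 29.8 CPM in KO6, 13.3 CPM in WT5 and 76.3 CPM in WT6, so WT6 could hardly have shown the 56.5 to 86.0 CPM of batch 2. Batch 1 had 20.0 to 41.1 CPM. The log2 difference of batch 3 from batch 2 was -2.74 (SE 0.48, adjusted p = 6.79e-05). The difference of batch 3 from batch 1 was -1.53 (SE 0.56, adjusted p = 0.0489) and was lost in 8 of the 12 fits that leave out 1 culture (KO1, KO2, KO4, KO5, KO6, WT1, WT2 or WT5), where adjusted p reached 0.242, with DESeq2 (adjusted p = 0.0676) and without KO6 and WT6 (adjusted p = 0.110). Batch 2 exceeded batch 1 by 1.21 (SE 0.24, adjusted p = 6.38e-04), but by 0.84 with adjusted p = 0.158 without WT4.

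Csf2ra RNA was high in batch 2. It had 60.6 and 81.0 CPM in KO5 and KO6 and 43.6 and 73.8 CPM in WT5 and WT6 of batch 3, then 146, 117 and 166 CPM in KO2, KO3 and KO4 and 118 CPM in WT4 of batch 2. Batch 1 had 69.3 CPM in KO1 and 82.9, 69.6 and 73.1 CPM in WT1, WT2 and WT3. Batch 2 stood above all other cultures, while batches 3 and 1 overlapped. The log2 difference was -1.05 for batch 3 over batch 2 (SE 0.17, adjusted p = 3.01e-04) and 0.81 for batch 2 over batch 1 (SE 0.18, adjusted p = 0.00814), the second lost without KO1 (adjusted p = 0.0511). The summed RNA of 5 monocyte markers was likewise highest in batch 2, with 127 to 183 CPM in batch 3, 308 to 519 CPM in batch 2 and 107 to 152 CPM in batch 1. Ccr2, a chemokine receptor of monocytes, made up most of it, with 81.3 CPM in batch 3, 339 CPM in batch 2 and 119 CPM in batch 1, while Ly6c2 and Fcnb were highest in batch 3. The 8 dendritic cell markers summed to 14.6 to 16.5 CPM in batch 3, 17.2 to 81.6 CPM in batch 2 and 96.2 to 154 CPM in batch 1. Most of that was Itgax, with 13.3 CPM in batch 3, 49.8 CPM in batch 2 and 128 CPM in batch 1. Of the 8 markers, 5 had their highest mean in batch 2, at low levels. The part of these cells in the Csf2ra and Csf3r differences was not tested. Footprints of Csf2ra did not follow. They were 178 to 239 CPM in batch 3, 179 to 262 CPM in batch 2 and 245 to 275 CPM in batch 1, and none of the 3 contrasts was called (log2 0.06, SE 0.18, for batch 3 over batch 2 and -0.31, SE 0.16, for batch 2 over batch 1).

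Csf2rb and Csf2rb2 lie on chromosome 15 (GRCm38.p6) 20.1 kb apart, at 78325800 to 78351001 and 78282507 to 78305721. Because the 2 genes are near-identical, a read may align to both. Reads that did not align uniquely are tallied for each library apart from the gene counts. How many of them came from these 2 genes is not given, so the split of reads between the genes is uncertain. Csf2rb RNA had 186 to 342 CPM in batch 3, 248 to 331 CPM in batch 2 and 171 to 190 CPM in batch 1. Batch 2 did not overlap with batch 1, while batch 3, in which WT5 had 186 CPM, did. The log2 difference of batch 3 from batch 1 was 0.52 (SE 0.16, adjusted p = 0.0194) and was lost without KO1 (adjusted p = 0.0531) or WT6 (adjusted p = 0.0746). That of batch 2 from batch 1 was 0.61 (SE 0.17, adjusted p = 0.0207), lost without KO1 (adjusted p = 0.0605), WT2 (adjusted p = 0.0527) or WT4 (adjusted p = 0.197).

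Csf2rb2 RNA was not called in any batch contrast (82.6 to 244 CPM over the 12 cultures), but its footprints were. They had 127 to 209 CPM in batch 3, 111 to 166 CPM in batch 2 and 199 to 332 CPM in batch 1. All cultures of batch 2 lay below those of batch 1, and its footprints fell by 0.93 on the log2 scale (SE 0.19, adjusted p = 0.00102), or by 0.63 with adjusted p = 0.0624 without WT4. Of the counts assigned to either beta chain, Csf2rb2 took 39.3% to 68.3% among footprints and 29.0% to 50.9% in total RNA. Its share was larger among footprints in 12 of 12 cultures, by 16.3 ± 5.32 percentage points (SD, n = 12). This is a description with no test, since the share in each kind of library also depends on the stretch of each gene that was counted. Shares in batch 3 rest on few footprint counts, 5 to 39 for Csf2rb and 5 to 37 for Csf2rb2, with 5 of each in WT6. The mean difference was 19.4 points in batch 3, 12.2 in batch 2 and 17.4 in batch 1. Of footprint reads, 45.6% to 80.1% did not align uniquely, and of total RNA reads 27.8% to 51.2%; their part in this difference was not tested.

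**Figure D2:**
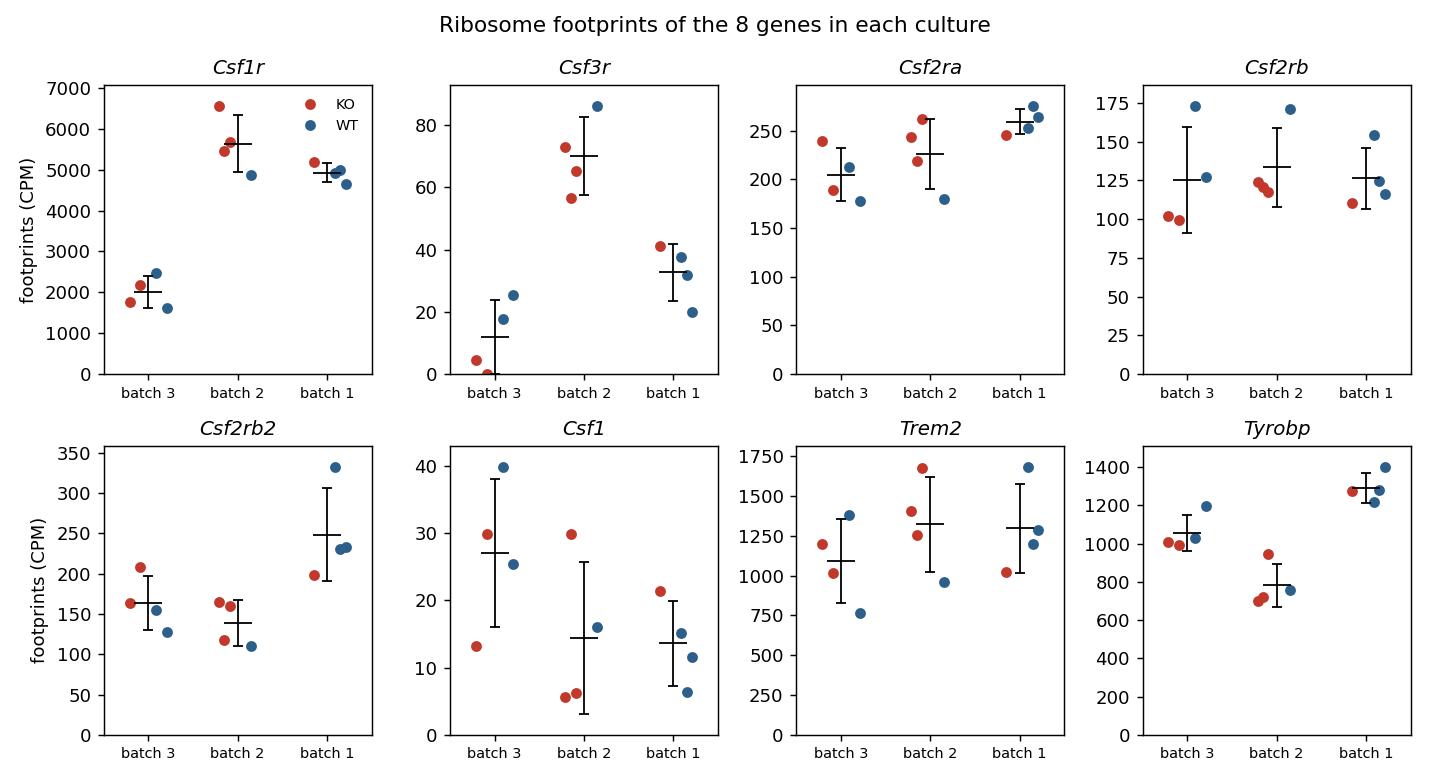
Ribosome footprints of the 8 genes in CPM, drawn as for total RNA, with 1 point per culture and the mean and SD of each batch of 4 cultures. Csf1r footprints in batch 3 (1628 to 2479 CPM) lie below all other cultures, and Tyrobp footprints are lowest in batch 2 (699 to 947 CPM).

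Csf1, the M-CSF gene itself, was a low-count transcript in these cultures, with 34 to 193 RNA counts and 1 to 54 footprint counts. KO3 of batch 2 had 33.5 CPM, the highest value, while KO2 and KO4 of the same batch had 7.10 and 6.83 CPM, the lowest. WT4 had 16.8 CPM. Batch 3 had 12.9 to 24.5 CPM and batch 1 had 10.2 to 13.6 CPM, so the batches overlapped and no contrast was called. IL-34, the other ligand of the M-CSF receptor, had at most 1 RNA count in any library, GM-CSF (Csf2) at most 2 and G-CSF (Csf3) at most 3.

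Trem2 RNA had 567 to 648 CPM in batch 3, 419 to 742 CPM in batch 2 and 699 to 839 CPM in batch 1. The lowest value was that of WT4, and batch 3 lay below batch 1 without overlap. The log2 difference was -0.34 for batch 3 over batch 1 (SE 0.14, adjusted p = 0.0653) and -0.40 for batch 2 over batch 1 (SE 0.16, adjusted p = 0.0816), neither called; DESeq2 called the first (adjusted p = 0.0436), and so did edgeR with no filter on low counts (adjusted p = 0.0375) or without KO1, KO4, WT4 or WT5. The second was called with no filter on low counts (adjusted p = 0.0412) or without KO4 (adjusted p = 0.0270), and was -0.15 (adjusted p = 0.534) without WT4. Trem2 footprints had 763 to 1381 CPM in batch 3, 958 to 1672 CPM in batch 2 and 1019 to 1680 CPM in batch 1, with overlap throughout. Their log2 difference for batch 2 over batch 1 was -0.02, but -0.80 in the 4 deep footprint libraries alone. WT1 is the only culture of batch 1 there, so with genotype in the model that value sets WT4 (958 CPM) against WT1 (1680 CPM) alone. KO2 and KO4, the deep KO libraries of batch 2, had 1406 and 1672 CPM.

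Tyrobp RNA had 705 to 913 CPM in batch 3, 829 to 1034 CPM in batch 2 and 908 to 999 CPM in batch 1. No RNA contrast was called, although DESeq2 called batch 3 below batch 1 (log2 -0.26, adjusted p = 0.0262) and below batch 2 (log2 -0.24, adjusted p = 0.0369). Its footprints set batch 2 apart, with 699, 722 and 947 CPM in KO2, KO3 and KO4 and 759 CPM in WT4, against 994 to 1196 CPM in batch 3 and 1216 to 1400 CPM in batch 1. The 3 batches did not overlap, but batches 3 and 1 nearly met, at 1196 CPM in WT6 (47 counts) and 1216 CPM in WT1. Batch 3 over batch 1 was not called (log2 -0.21, SE 0.14, edgeR adjusted p = 0.323). Tyrobp footprints in batch 2 fell by 0.73 on the log2 scale relative to batch 1 (SE 0.14, adjusted p = 6.37e-04). In batch 3 they exceeded batch 2 by 0.52 (SE 0.14, adjusted p = 0.00777), a difference not called without KO6 and WT6 (adjusted p = 0.0511) or with no filter on low counts (adjusted p = 0.0557).

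Over the batch contrasts of total RNA, 3 of the 8 genes were called between batch 3 and batch 1 (45.3% of 10942 genes tested), 4 of 8 between batch 2 and batch 1, all higher in batch 2 (23.5% of genes called, 12.7% higher), and 3 of 8 between batch 3 and batch 2, all lower in batch 3 (49.2% called, 24.5% lower). In footprints the counts were 2 of 8 for batch 3 over batch 1 (20.8% of 7208 genes tested), 3 of 8 for batch 2 over batch 1 (15.4%) and 3 of 8 for batch 3 over batch 2 (22.5%). Being called was therefore common among all genes in these contrasts, and the share of members called is no result about them; what the values show is the size of each difference.

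**Figure D3:**
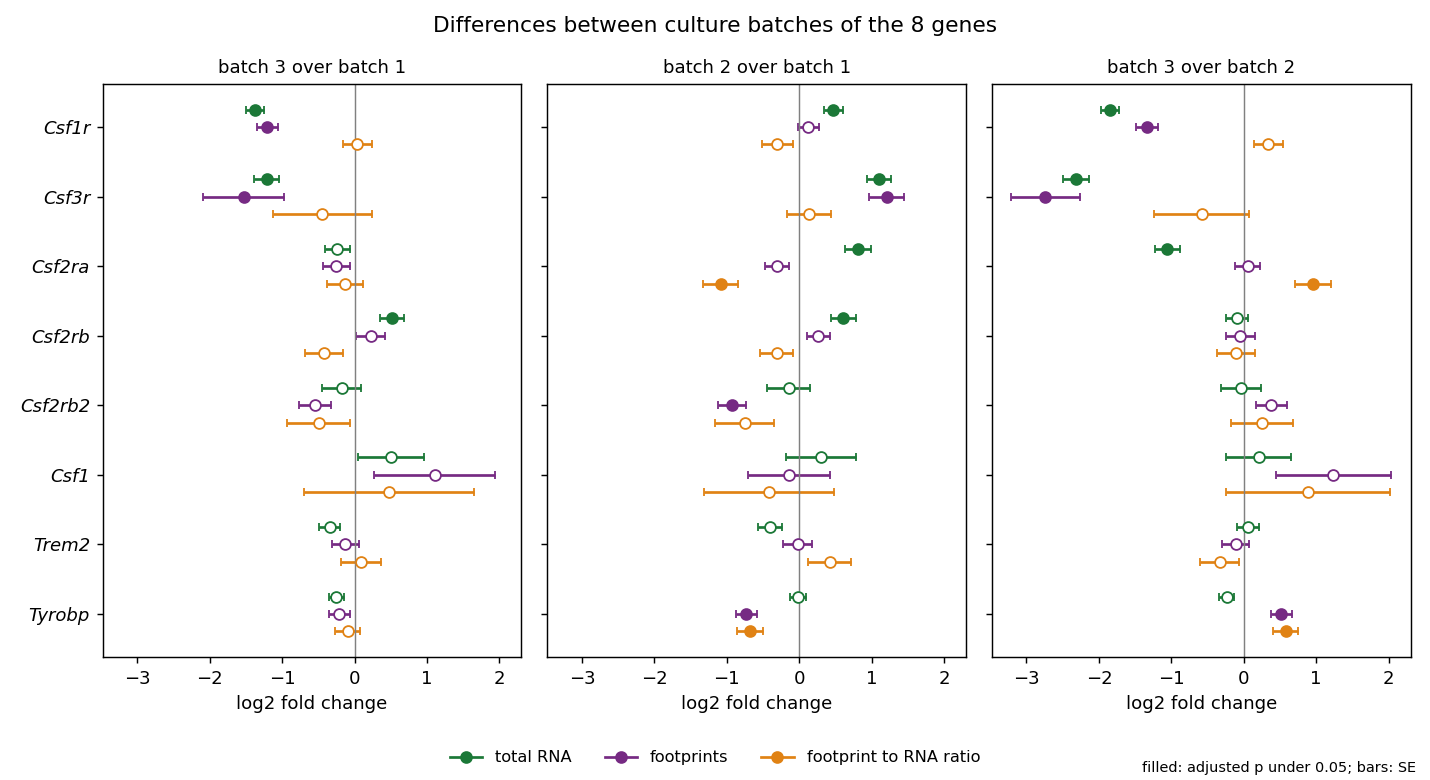
Log2 fold change between batches for each gene, in total RNA, footprints and the footprint to RNA ratio, with the standard error as bar and filled points for an edgeR adjusted p under 0.05. Csf1r and Csf3r moved together in RNA and footprints between batch 3 and the other batches, whereas Csf2ra differed in RNA and ratio, and Tyrobp in footprints and ratio, where batch 2 is involved.

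The ratio of footprint CPM to RNA CPM was then set beside both. The footprint counts are named as counts over coding sequence, no region is given for total RNA, and no lengths were used, so ratios are compared across cultures within a gene, and how far a ratio lies from 1 also depends on the regions counted. Averaged over the 12 cultures, footprints exceeded RNA for Csf2ra (log2 1.51, SE 0.10, adjusted p = 1.07e-14), Trem2 (1.07, SE 0.11, adjusted p = 1.07e-09), Csf1r (0.80, SE 0.08, adjusted p = 2.55e-10) and Tyrobp (0.30, SE 0.07, adjusted p = 3.10e-04), and were lower for Csf2rb (-0.78, SE 0.10, adjusted p = 2.44e-08). These 5 of 8 compare with 66.9% of the 10747 genes tested, for which the median was -0.13. The members' median was 0.25. The call for Tyrobp was lost with no filter on low counts (log2 0.12, adjusted p = 0.225) and without the 8 footprint libraries under 1000000 counts (0.16, adjusted p = 0.313). Csf2rb2 had 0.18 (SE 0.16, adjusted p = 0.346), but was called with each culture as a block (0.25, adjusted p = 0.00141, where 68.7% of genes were called). Csf3r had -0.42 (SE 0.22, adjusted p = 0.0897), but was called by DESeq2 (-0.58, adjusted p = 0.0170), and Csf1 had 0.20 (SE 0.43, adjusted p = 0.706).

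The ratio of Csf2ra fell in batch 2. It was 3.95 and 2.33 in KO5 and KO6 and 4.87 and 2.41 in WT5 and WT6 of batch 3. In batch 2 it was 1.67, 1.86 and 1.58 in KO2, KO3 and KO4 and 1.52 in WT4. In batch 1 it was 3.54 in KO1 and 3.05, 3.95 and 3.61 in WT1, WT2 and WT3. Batch 2 lay below every other culture. The log2 difference was -1.08 for batch 2 over batch 1 (SE 0.24, adjusted p = 0.00340), or -0.94 with adjusted p = 0.0632 without WT4. For batch 3 over batch 2 it was 0.95 (SE 0.25, adjusted p = 0.0173), lost without KO5 (0.83, adjusted p = 0.152), WT4 (0.85, adjusted p = 0.0735) or WT5 (0.76, adjusted p = 0.0748). With each culture as a block the adjusted p-values were 1.06e-10 for batch 2 over batch 1 and 1.64e-06 for batch 3 over batch 2.

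Tyrobp showed the same pattern. Its ratio was 1.43 and 1.31 in KO5 and KO6 and 1.12 and 1.50 in WT5 and WT6 of batch 3, then 0.843, 0.870 and 0.916 in KO2, KO3 and KO4 and 0.813 in WT4 of batch 2. Batch 1 had 1.32 in KO1 and 1.22, 1.33 and 1.54 in WT1, WT2 and WT3. Batch 2 again lay below every other culture. The log2 difference was -0.68 for batch 2 over batch 1 (SE 0.18, adjusted p = 0.0150), lost without KO1 (adjusted p = 0.0612), WT3 (adjusted p = 0.0571) or WT4 (adjusted p = 0.101). For batch 3 over batch 2 it was 0.58 (SE 0.17, adjusted p = 0.0414), and leaving out 1 culture ended the call in 9 of 12 fits (KO2, KO3, KO5, KO6, WT1, WT2, WT3, WT4 or WT6, with adjusted p up to 0.155); with each culture as a block it was 0.58 (adjusted p = 8.95e-04).

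**Figure D4:**
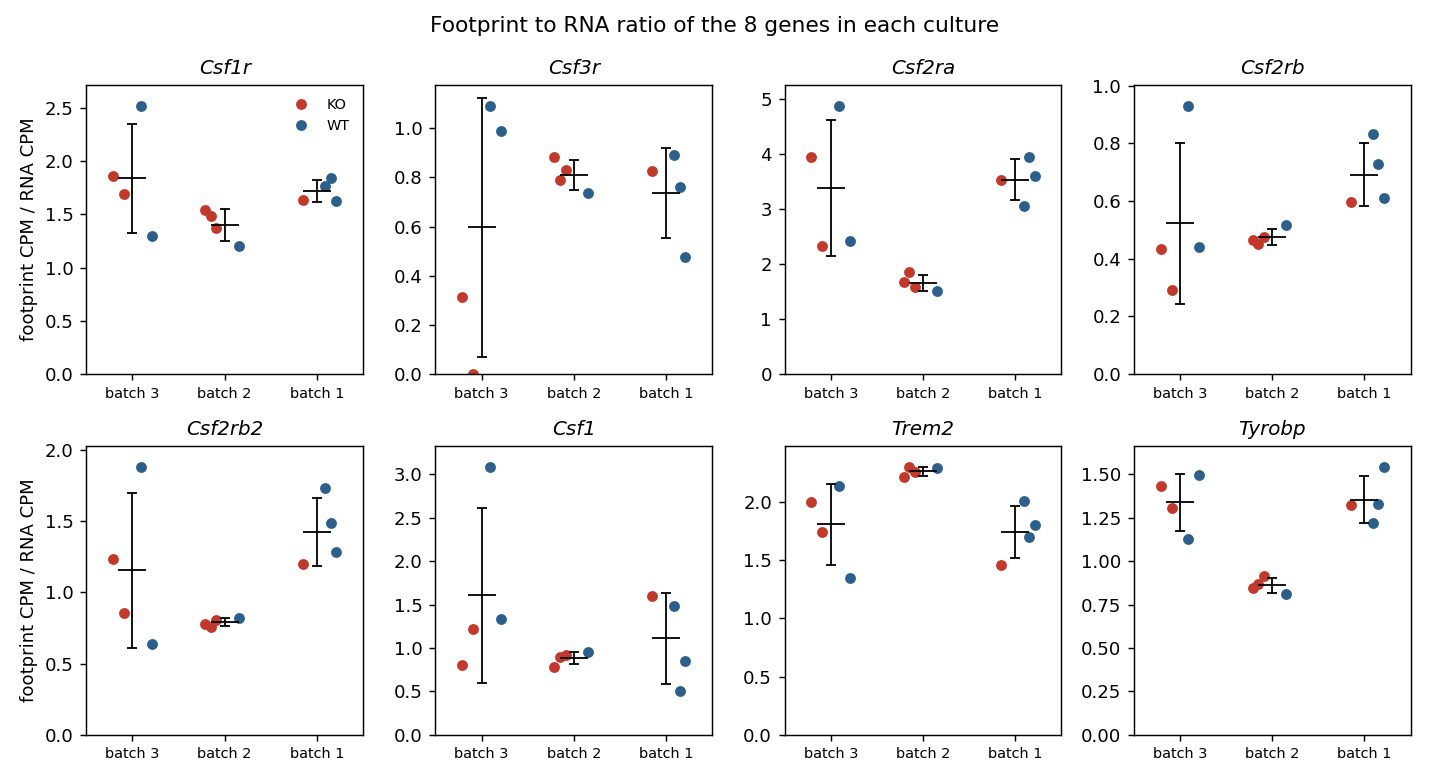
Footprint to RNA ratio of the 8 genes (CPM over CPM), 1 point per culture with the mean and SD of each batch of 4 cultures. The ratios of Csf2ra (1.52 to 1.86) and Tyrobp (0.813 to 0.916) in batch 2 lie below those of all cultures in batches 3 and 1, and Trem2 ratios in batch 2 (2.21 to 2.30) lie above them.

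Fcer1g, an adaptor of the same kind that carries an ITAM and serves Fc receptors, also had a lower ratio in batch 2 than in batch 1 (-0.78, SE 0.21, adjusted p = 0.0152), while its RNA was called higher there (log2 1.05, SE 0.13, adjusted p = 2.03e-04). Trem2, the receptor of Tyrobp, had ratios of 2.21 to 2.30 in batch 2, against 1.35 to 2.13 in batch 3 and 1.46 to 2.00 in batch 1. These values did not overlap between batch 2 and the others, but the contrast of batch 2 over batch 1 was not called (0.42, SE 0.29, adjusted p = 0.407) unless each culture was a block (0.45, SE 0.13, adjusted p = 0.00625). The footprint counts of Trem2 over those of Tyrobp were 0.638 to 1.34 in batch 3, 1.26 to 2.01 in batch 2 and 0.800 to 1.38 in batch 1, so these ranges overlapped, and the RNA counts of the pair gave 0.449 to 0.849 over all cultures. On the log2 scale the footprint value less the RNA value averaged 0.42 in batch 3, 1.40 in batch 2 and 0.36 in batch 1, given as a description with no test.

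Between batch 3 and batch 1 no ratio of the 8 genes was called (0.633% of 10747 genes), between batch 2 and batch 1 the ratios of 2 were lower (10.0% called, 4.56% lower), and between batch 3 and batch 2 those of 2 were higher (6.42% called, 1.67% higher). With each culture as a block, batch 2 over batch 1 had 4 members called, adding Csf2rb2 (-0.73, adjusted p = 3.98e-05) and Trem2, where 21.5% of all genes were. Batch 3 over batch 2 then had 3 members called, adding Csf1r (0.38, adjusted p = 0.0495), where 11.6% of all genes were. The median ratio of all genes shifted by -0.15 in batch 3 relative to batch 1 and by -0.16 relative to batch 2, so the members' values there read higher by that much relative to the median gene.

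No difference between KO and WT cultures passed the threshold for any of the 8 genes. In total RNA 0 of 8 were called by edgeR, and 0 of 8 had an unadjusted p under 0.05, where 0.0183% of 10942 genes were called. In footprints 0 of 8 were called, and 1 had an unadjusted p under 0.05, where 0.0832% of 7208 genes were called. In the ratio 0 of 8 were called, and 1 had an unadjusted p under 0.05, where 0.00930% of 10747 genes were called. DESeq2 also called 0 in all 3. The median log2 fold change of the members was 0.08 in RNA, 0.00087 in footprints and -0.04 in the ratio. Over all genes tested it was -0.0016 in RNA, 0.015 in footprints and 0.0042 in the ratio.

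Csf2rb was the gene with the unadjusted p under 0.05 in both. Its footprints were lower in the KO mean, with a mean of 112 ± 10.1 CPM over the KO cultures and of 144 ± 24.9 CPM over the WT cultures (SD, n = 6 each). KO cultures had 99.4, 114 and 124 CPM as lowest, median and highest, and WT cultures had 116, 141 and 173 CPM, so the ranges overlapped between 116 and 124 CPM. The log2 fold change was -0.47 (SE 0.15, 1.38-fold lower, edgeR adjusted p = 0.293). It ranged from -0.57 without KO1 to -0.41 without WT5 when 1 culture was left out (adjusted p from 0.0590 to 0.950), and DESeq2 gave adjusted p = 0.295. The KO over WT log2 difference was -0.55 in batch 3, -0.50 in batch 2 and -0.24 in batch 1, where batch 1 had 1 KO and batch 2 had 1 WT culture. The value of batch 3 rests on few counts, 23 and 10 in KO5 and KO6 and 39 and 5 in WT5 and WT6. Csf2rb RNA averaged 257 ± 51.5 CPM over the KO cultures and 226 ± 67.3 CPM over the WT cultures (log2 fold change -0.0035, SE 0.14), with 0.29 in batch 3, -0.35 in batch 2 and 0.02 in batch 1. The ratio had a log2 fold change of -0.47 (SE 0.20, edgeR adjusted p = 1). In the authors' deposited table over all genes, Csf2rb had a log2 fold change of 0.60 (SE 0.21, p = 0.00455, adjusted p = 0.889); the direction is not stated there, and Apobec1 is 4.88 in that table, so the sign was read, as an inference, as WT over KO.

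The other members gave smaller differences or wider errors. Csf1r RNA had a log2 fold change of 0.04 (SE 0.11) and its footprints 0.08 (SE 0.13). Csf3r RNA had -0.26 (SE 0.14, adjusted p = 0.859), with -0.37 in batch 3, -0.59 in batch 2 and 0.24 in batch 1. Csf2ra had 0.15 (SE 0.15) in RNA and 0.17 (SE 0.14) in footprints. Csf2rb2 had 0.28 (SE 0.24) in RNA, Trem2 0.12 (SE 0.13) and Tyrobp -0.11 (SE 0.09). Csf1, at its low counts, had 0.15 (SE 0.39) in RNA and -0.36 (SE 0.51) in footprints. With only the 4 cultures whose footprint library held at least 1000000 counts (KO2, KO4, WT1 and WT4), footprints of 5 members were called: Csf2ra (0.47, adjusted p = 0.0290), Csf2rb (-0.53, adjusted p = 0.0132), Csf2rb2 (0.53, adjusted p = 0.0158), Csf1 (-1.46, adjusted p = 0.000815) and Trem2 (0.66, adjusted p = 0.000566). In that fit 1413 of 9725 genes were called, and within batch 2 it sets KO2 and KO4 against WT4 alone. A test of whether the KO over WT difference in RNA itself differed between batches called 0 of the 8 (0.987% of 10942 genes), with unadjusted p-values under 0.05 for Csf3r (0.0238, adjusted p = 0.278) and Trem2 (0.0288, adjusted p = 0.304).

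**Figure D5:**
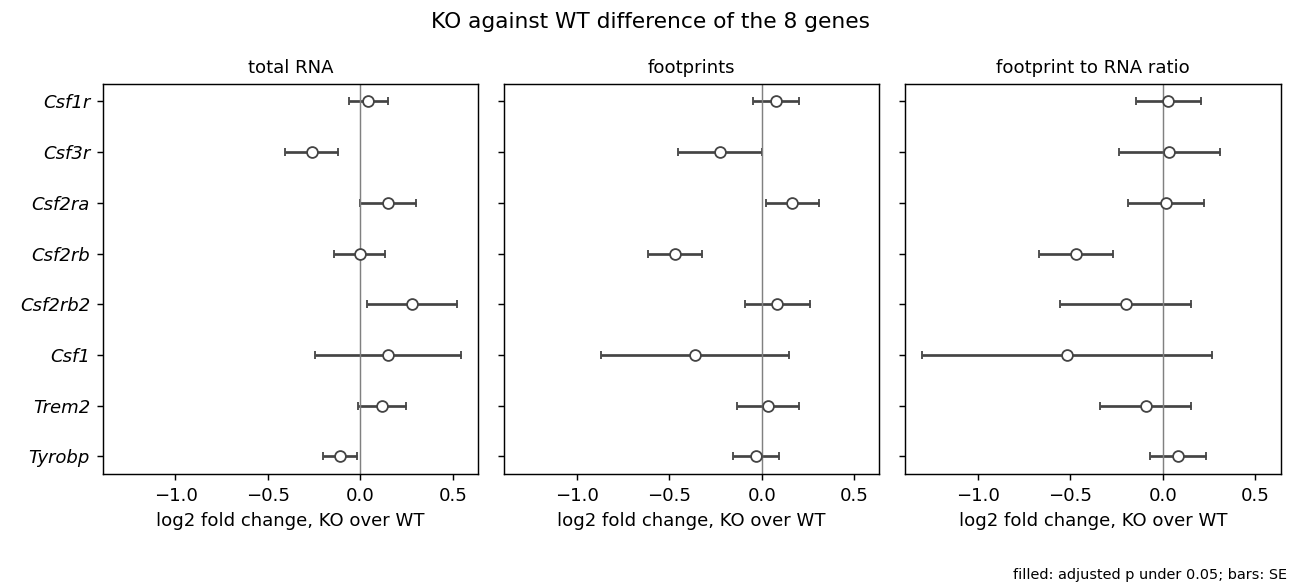
KO over WT log2 fold change of each gene in total RNA, footprints and the footprint to RNA ratio, with the standard error as bar and open points for an edgeR adjusted p of 0.05 or more. The footprints of Csf2rb (-0.47) lie farthest from 0 in units of their error, and no point is filled.

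The pathway around the receptors was read from lists of genes. None of the genes of these 4 lists was called by edgeR between KO and WT in RNA, footprints or ratio, although 6 were in footprints with no filter on low counts and 17 in the 4 deep footprint libraries alone, and 1 in the ratio with no filter on low counts. Leaving out KO1, KO5, KO6, WT1, WT2 or WT5 gave 1 to 3 such calls in footprints. Of 42 cytoplasmic signalling genes, 40 were tested in RNA. In batch 3 relative to batch 2, 25 were lower and 2 higher, where 49.2% of all genes were called and 24.5% were lower, and the list median was -0.43 against 0.01 for all genes. Those lower included Inpp5d, a lipid phosphatase that restrains signalling (log2 -0.95, adjusted p = 4.87e-06), the kinase Lyn (-0.84, adjusted p = 1.12e-05) and the docking protein Gab1 (-2.70, adjusted p = 5.63e-05). In batch 3 relative to batch 1, 19 were lower and 3 higher (45.3% of all genes called, 22.3% lower), so 22 of 40 were called, near the share of all genes, and the list median was -0.27 against 0.01. Lyn had -0.78 there and the cytokine receptor kinase Jak1 -0.79. In batch 2 relative to batch 1, 12 were higher and 2 lower (23.5% of all genes called, 12.7% higher), among them Dok3 (1.14), an adaptor that restrains ITAM signalling, the Src-family kinase Fgr (1.61) and the feedback inhibitor Socs3 (3.20), all higher. Cultures of batch 2 spread widely, with 9.85 to 91.9 CPM for Socs3 and 16.3 to 62.0 CPM for Fgr. Batch 1 had 2.28 to 6.84 CPM and 12.7 to 15.7 CPM. Without WT4, 10 genes of the 4 lists were called in this contrast instead of 22, where 1345 of 11043 genes were called.

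Of 18 genes listed around Tyrobp, which are receptors that use it or a kindred adaptor and such adaptors themselves (Fcer1g, Hcst and Cd247), 10 were tested in RNA. In batch 3 relative to batch 2, the RNA of 7 was lower and that of 1 higher (49.2% of all genes called, 24.5% lower), and the adaptor Fcer1g was among the 7 (log2 -0.91, SE 0.12, adjusted p = 6.31e-05). Fcer1g footprints were higher in batch 3 than in batch 2 (log2 0.44, SE 0.15, adjusted p = 0.0264). In batch 3 relative to batch 1, the RNA of 4 was lower and that of 1 higher (45.3% of all genes called, 22.3% lower). The lower ones included Cd300ld (-0.60) and, at low counts, Pilrb1 (-2.68) and Pilrb2 (-1.89). The higher one was Clec5a, which signals through Tyrobp (1.67, SE 0.36, adjusted p = 0.00361). Of the 11 genes that shed receptors or cut them in the membrane, 5 had lower RNA and 1 higher RNA in batch 3 relative to batch 2, a share called that is near the 49.2% of all genes. Adam17, the protease known to shed Csf1r and Trem2, had there a log2 fold change of -1.50 in footprints (SE 0.17, adjusted p = 1.17e-07) and of -0.99 in RNA (SE 0.10, adjusted p = 3.75e-06). Of 14 further ligands and receptors, 5 were tested in RNA. The RNA of Kit, the stem cell factor receptor and a relative of Csf1r, was higher in batch 3, with 39.8 to 68.2 CPM, against 1.47 to 3.22 CPM in batch 2 and 6.72 to 12.3 CPM in batch 1 (log2 4.35 over batch 2, SE 0.26, adjusted p = 1.12e-07). Il3ra, the IL-3 receptor alpha chain that pairs with the beta chains above, had higher RNA in batch 2 than in batch 1 (0.98, SE 0.14, adjusted p = 6.68e-04).

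Of the 10 macrophage markers, 9 had, like Csf1r, their lowest mean RNA in batch 3, and for 8 the batch lay below all other cultures. The exceptions to the second count were Cd68 and Lyz2. Among the 8, besides Emr1, were Mertk (5.28 CPM, against 41.6 CPM in batch 2 and 51.8 CPM in batch 1), an engulfment receptor, Fcgr1 (71.7 CPM, against 440 CPM in batch 2 and 278 CPM in batch 1) and Mrc1 (112 CPM, against 325 CPM in batch 2 and 518 CPM in batch 1). The summed level of the 10 macrophage markers was 15165 to 25135 CPM in batch 3, 24502 to 45576 CPM in batch 2 and 19922 to 27097 CPM in batch 1, most of it from Lyz2 (lysozyme), which averaged 14724 CPM in batch 3, 22361 CPM in batch 2 and 15249 CPM in batch 1. Of the 7 lymphoid markers, Cd3g was at 0 and the others had at most 1 count in any library, except Cd79b with 9 to 50 counts. The 10 stromal and endothelial markers summed to 27.5 to 48.8 CPM in batch 3, at most 34.7 CPM in batch 2 and 13.4 to 16.8 CPM in batch 1. Most of that was Kdr, an endothelial receptor kinase, with 37.6 CPM in batch 3, 25.8 CPM in batch 2 and 11.9 CPM in batch 1, while the other 9 had their lowest mean in batch 3 and the collagens Col1a1 and Col3a1 had at most 3 and 5 counts. The part of cell composition, of sex and of batch in the Csf1r and Csf3r differences was not tested.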

How the data were processed

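Total RNA and ribosome footprints were measured in 6 KO and 6 WT cultures. The authors deposited whole-number read counts per gene symbol for each library, not normalized. Footprint counts are named there as counts over coding sequence, and a gene that a footprint file did not list was taken as 0. The submitters' processing notes name, without saying what each did, Bowtie 1.1.2, Cufflinks 2.2.1, TopHat2 2.1.0, Trim Galore, HTSeq, DESeq and DESeq2, and the build mm10. The 5 summary lines of each file stayed out of library sizes. The authors' deposited result tables give, per the file headers, a log2 fold change with its error, a p-value, an adjusted p-value, a test score and a mean normalized signal per gene; the score and the mean signal deposited there were not used.

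Library sizes were scaled by TMM, genes were kept by filterByExpr at a minimum count of 10, and edgeR 4.0.16 (R 4.3.3) gave quasi-likelihood tests with genotype and batch as terms and robust dispersion. P-values were adjusted after Benjamini and Hochberg over all genes tested, and a gene was called at an adjusted p under 0.05. The footprint to RNA ratio was tested as an interaction over the 24 libraries. Footprint and total RNA libraries of a culture come from the same cells by their labels. Their deviations from genotype means, which keep the batch differences, correlated at 0.160 to 0.472. In 8 of 12 cultures the correlation was best with the culture's own partner. Each culture was therefore also fitted as a block. The p-values of that fit rest mostly on an error estimated across all genes. They may understate the spread of a single gene between cultures. DESeq2 1.42.0, RLE scaling, other filters and models and each culture left out were alternatives. The tests across genes were tried on simulated data.

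The members and lists were chosen with earlier results of these data known. The ratio contrasts between batches, the comparisons of the beta chains and of Trem2 with Tyrobp within a culture, and leaving out KO6 and WT6 together were chosen after seeing the data. The genes named are the 8 members, Apobec1, at most 4 called genes of each list and comparison with the smallest adjusted p, and the gene most alike to each member. Csf2, Csf3, Il34 and the cell type markers are named beside them. Levels per length, planned for comparing genes, were not computed, since no lengths were used.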

Additional observations from a re-analysis of the deposited data

Results flagged for a closer look

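Csf3r in WT4 stood far from the other WT cultures in both kinds of library. Its footprints were 86.0 CPM in WT4, where the nearest other WT culture had 37.6 CPM and the lowest 17.7 CPM. Its RNA was 117 CPM in WT4, where the nearest other WT culture had 42.2 CPM and the lowest 16.3 CPM. WT4 is the single WT culture of batch 2, whose KO cultures had 56.5 to 73.0 CPM in footprints and 71.6 to 82.7 CPM in RNA. These were 2 of 48 groups examined, and chance alone flags about 1 group in 20.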

How the results depend on the processing

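Some counts of members called changed with the processing, and the cause was not tested. DESeq2 called 5 members for batch 3 over 1 in total RNA, where it called 5021 of 10942 genes, and 1 in footprints, where it called 1530 of 7208. Without KO6 and WT6, 1 was called for batch 3 over 1 in footprints and 1 for batch 3 over 2 in the ratio, where no filter on low counts also gave 1. With each culture as a block 4 were called for batch 2 over 1 in the ratio (2313 of 10747 genes). With the 8 shallow footprint libraries left out, 5 were called for KO over WT footprints. That alternative was not run for batch 3, which has no deep footprint library. Leaving out 1 culture in turn gave these counts of members called: 2 to 5 for batch 3 over 1 total RNA, 2 to 5 for batch 2 over 1 total RNA, 3 to 4 for batch 3 over 2 total RNA, 1 to 2 for batch 3 over 1 footprints, 1 to 3 for batch 2 over 1 footprints, 3 to 3 for batch 3 over 2 footprints, 5 to 6 for footprints over total RNA, 0 to 2 for batch 2 over 1 ratio and 0 to 2 for batch 3 over 2 ratio. The number of all genes called moved as well. For batch 2 over 1 total RNA it was 2572 of 10942 genes in the fit reported and 1345 of 11043 without WT4, where 2 members were called. Changes in these counts are therefore no result about the members. KO and WT libraries of the same number correlated at 0.0276 to 0.807 in total RNA, where 2 of 6 correlated best with their own number, and at 0.0399 to 0.240 in footprints, where 1 of 6 did. KO1 and WT1, KO4 and WT4, KO5 and WT5, and KO6 and WT6 also share a batch. KO2 and WT2, and KO3 and WT3, share only a number. Deviations were taken from genotype means, so a shared batch enters these correlations. The highest in total RNA were those of KO5 with WT5 (0.807) and KO6 with WT6 (0.780), both of batch 3. With the number as a block 0 members were called between KO and WT.

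Of the log2 values of single members over all alternatives, 1607 kept their direction and side of the threshold, 105 turned direction, 34 newly passed and 42 no longer passed. None of the members that turned direction was called in the fit reported for that comparison. With no filter on low counts the log2 value was 0.0072 for Csf2rb (KO over WT total RNA), 0.0044 for Trem2 (batch 2 over 1 footprints), -0.051 for Csf2ra (batch 3 over 2 footprints) and -0.00056 for Csf2rb2 (footprints over total RNA). With no batch term the log2 value was 0.18 for Csf2rb (KO over WT total RNA), 0.13 for Csf3r (KO over WT total RNA), -0.039 for Trem2 (KO over WT total RNA), -0.32 for Csf2rb2 (KO over WT footprints), 0.21 for Csf3r (KO over WT footprints), -0.058 for Csf1r (KO over WT ratio), -0.44 for Csf2ra (KO over WT ratio), 0.087 for Trem2 (KO over WT ratio) and -0.17 for Tyrobp (KO over WT ratio). With the replicate number or the culture as a block the log2 value was 0.028 for Csf2rb (KO over WT total RNA), 0.051 for Tyrobp (KO over WT footprints), 0.022 for Csf2ra (batch 3 over 1 ratio) and 0.090 for Csf2rb (batch 3 over 2 ratio). With no genotype term the log2 value was 0.016 for Csf2rb2 (batch 2 over 1 total RNA), 0.0015 for Trem2 (batch 2 over 1 footprints) and 0.047 for Csf2rb (batch 3 over 2 footprints). Without shallow footprint libraries the log2 value was 0.094 for Tyrobp (KO over WT footprints) and 0.10 for Csf1 (batch 2 over 1 footprints). Without KO6 and WT6 the log2 value was -0.0074 for Trem2 (KO over WT footprints), 0.042 for Trem2 (batch 3 over 1 footprints), 0.042 for Trem2 (batch 3 over 2 footprints), -0.040 for Csf1r (KO over WT ratio), -0.016 for Csf3r (KO over WT ratio), 0.30 for Csf2ra (batch 3 over 1 ratio), 0.11 for Csf2rb2 (batch 3 over 1 ratio) and 0.30 for Csf2rb (batch 3 over 2 ratio). With DESeq2 the log2 value was 0.022 for Tyrobp (batch 3 over 1 ratio) and 0.042 for Csf2rb (batch 3 over 2 ratio). With RLE scaling the log2 value was 0.037 for Tyrobp (batch 3 over 1 ratio) and 0.044 for Csf2rb (batch 3 over 2 ratio). The next ranges, lowest to highest log2 value when 1 culture was left out, are of the members that turned direction. Ranges in KO over WT total RNA were -0.020 to 0.11 for Csf1r, -0.13 to 0.16 for Csf2rb, -0.13 to 0.26 for Csf1 and -0.077 to 0.22 for Trem2. In batch 3 over 1 total RNA the range was -0.48 to 0.097 for Csf2rb2. Ranges in batch 2 over 1 total RNA were -0.23 to 0.52 for Csf1 and -0.089 to 0.049 for Tyrobp. In batch 3 over 2 total RNA the range was -0.28 to 0.083 for Csf2rb, -0.30 to 0.13 for Csf2rb2, -0.048 to 0.82 for Csf1 and -0.15 to 0.18 for Trem2. Ranges in KO over WT footprints were -0.033 to 0.21 for Csf1r, -0.032 to 0.31 for Csf2ra, -0.22 to 0.37 for Csf2rb2, -0.48 to 0.17 for Csf3r, -0.79 to 0.15 for Csf1 and -0.27 to 0.25 for Trem2. In batch 3 over 1 footprints the range was -0.38 to 0.023 for Trem2. Ranges in batch 2 over 1 footprints were -0.71 to 0.34 for Csf1 and -0.31 to 0.32 for Trem2. In batch 3 over 2 footprints the range was -0.061 to 0.13 for Csf2ra, -0.21 to 0.019 for Csf2rb and -0.33 to 0.030 for Trem2. Ranges in KO over WT ratio were -0.10 to 0.23 for Csf1r, -0.13 to 0.18 for Csf2ra, -0.063 to 0.24 for Csf3r and -0.18 to 0.036 for Trem2. In batch 3 over 1 ratio the range was -0.28 to 0.24 for Csf1r, -0.41 to 0.062 for Csf2ra, -0.13 to 0.90 for Csf1 and -0.098 to 0.23 for Trem2. Ranges in batch 2 over 1 ratio were -0.0047 to 0.28 for Csf3r and -0.82 to 0.070 for Csf1. In batch 3 over 2 ratio the range was -0.41 to 0.12 for Csf2rb. Footprint depth limits batch 3, where a count of 3 equals 13.3 to 76.3 CPM, against 0.244 to 0.603 CPM over all total RNA libraries. The median footprint over RNA value of all genes was -0.13 with TMM, -0.29 with RLE and -0.26 with DESeq2.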

Other observations

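Genes whose total RNA was most like that of a member over the 12 libraries are given as a description. For Csf1r the highest Pearson r of log2 CPM among 10942 genes was with Siglec1, a sialic acid receptor of macrophages (r = 0.994, or 0.794 after subtracting batch means), and for Csf3r with Cmklr1, the chemerin receptor (0.986, or 0.757). For Csf2ra it was with Zfp36, which binds AU-rich mRNA (0.981, or 0.945), for Csf2rb with Abr (0.985, or 0.978) and for Csf2rb2 with Diap1 (0.955, or 0.985). For Csf1, Trem2 and Tyrobp it was with Atp2a3 (0.894, or 0.971), Iws1 (0.957, or 0.936) and Snhg7 (0.904, or 0.843). Between members, Csf1r and Csf3r had r = 0.963 over the 12 libraries and 0.638 after subtracting batch means. All members and genes were read in the same libraries, which share 3 batches.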
